A study of Saccharomyces cerevisiae with 219 samples.

Results

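The mitochondrial ribosomal protein genes of Saccharomyces cerevisiae described here are the nuclear genes whose symbol is MRP, MRPL, MRPS or RSM followed by a number. The symbols of both array designs gave 67 such genes among 5691 genes with a symbol. Of these, 38 encode proteins of the large subunit and 27 proteins of the small subunit. RSM22, a predicted methyltransferase, and MRP8, originally named as a ribosomal protein from sequence analysis, are assigned to neither subunit. By the ribosomal nomenclature, 41 of the proteins have a bacterial homologue and 24 are found only in mitochondrial ribosomes. The symbols chose the genes, and no measured value did. Each gene had a value in 80 to 217 of the arrays.

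The mitochondrial ribosome translates the few messages encoded in mitochondrial DNA, which in yeast specify core subunits of the respiratory chain and of the ATP synthase and a ribosomal protein. Its rRNAs come from mitochondrial DNA, whereas its proteins are made on cytosolic ribosomes and imported. It descends from a bacterial ribosome, and in yeast it carries many added proteins and extensions. Yeast in stationary phase has used up its glucose and lives by respiration, while the synthesis of cytosolic ribosomes is largely shut down.

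The study asked how mRNA abundance in stationary phase yeast responds to stress and whether transcripts are held in complexes that proteases release. RNA was primed with oligo-dT, labelled with Cy5 and hybridized against a common Cy3-labelled reference of equal parts stationary and exponential RNA. Unless named otherwise the strain was S288c (MATα), auxotrophic through his3, leu2, lys2, trp1 and ura3 alleles, and stationary cells were grown for 7 days in rich medium at 30 °C. Exponential cells were grown overnight in the same medium at the same temperature. The arrays formed 7 sets.

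Menadione, a redox-cycling quinone that generates superoxide, was added at 50 µM in 3 time courses of stationary cells. The first was sampled every 30 min to 8 h with 2 arrays per time and 6 arrays before treatment (T0), the second every minute to 35 min and at 60 min with 2 arrays per time and 6 T0 arrays, and the third every 10 s to 180 s and at 300 s with 1 array per time and 6 T0 arrays. In a temperature upshift set, stationary cells were moved to 39 °C and sampled every 30 min to 8 h with 2 arrays per time, without T0 arrays of its own. In the RNA polymerase II set, rpb1-1 cells (MATa ura3-52 rpb1-1), a temperature-sensitive RNA polymerase II mutant, were compared with the parental strain (MATα ura3-52) and S288c. These cultures were grown for 10 days at 24 °C and held for 3 h at 36 °C before menadione, with 2 arrays of each strain at T0 and 1 each at 2 and 30 min. This growth is not settled for the S288c arrays at 2 and 30 min, whose values were also deposited as arrays of the 1 min course. In the lysate set, lysates of exponential and stationary cells stood for 1 h on ice with trypsin, proteinase K or Qiagen protease, or with Tris buffer alone. Each protease had its own buffer arrays, with 2 arrays per condition. Stationary cells after 2 min of menadione were treated with trypsin or buffer. Per the study's methods trypsin was added in a NaCl solution and the other proteases in Tris buffer. The buffer arrays for trypsin were therefore not matched to its solution. In the isolation set, RNA of stationary cells was prepared with hot phenol, with a proteinase K step or with the study's own modified Gentra protocol, with 2 arrays each. For the 30 min, 1 min and upshift sets the treatment is not among the labels and was taken from the study's own methods. The arrays measured RNA of whole cultures, so fewer cells with a transcript and less transcript per cell cannot be told apart.

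Values are log2 ratios of sample to reference after each array was centred on the median of its genes, so a level of 0 is that of the median gene of the same array. A level does not rank transcripts by abundance, because each gene is set against its own level in the reference. A gene was called changed at a Benjamini-Hochberg adjusted p under 0.05 over all genes tested, from limma's moderated test on the means of the groups.

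Several arrays stood apart from others with the same label, judged by cytosolic ribosomal protein genes, which are high in growing cells, and by 12 stationary phase markers. In 2 of the 6 T0 arrays of the 10 s course the cytosolic ribosomal protein median lay above that of the markers. These arrays correlated at 0.03 to 0.08 with the other T0 arrays of that course over all genes. Of the stationary lysate arrays, cytosolic ribosomal protein genes lay above the markers in 6 of 6 protease arrays, 4 of 6 buffer arrays and 2 of 4 arrays after menadione. In the exponential lysates they lay above in 5 of 6 protease arrays and 6 of 6 buffer arrays. The stationary proteinase K buffer array numbered 2 correlated at 0.04 with its duplicate and at 0.89 with an exponential proteinase K buffer array. In the RNA polymerase II set they lay above the markers in both S288c T0 arrays and 1 parental T0 array, and 1 rpb1-1 T0 array held only 941 usable values against a median of 4242 in that set. Each of the 6 T0 arrays of the 1 min course correlated at 0.977 to 0.981 with a different T0 array of the 30 min course, while T0 arrays of the 30 min course correlated with each other at 0.857 to 0.947. The T0 arrays of these courses are therefore not treated as independent, and those of the 1 min course are on another array design than its treated arrays. The S288c arrays of the RNA polymerase II set at 2 and 30 min held the same value as an array of the 1 min course at each of 5975 and 5284 probes (2 min array 1 and 30 min array 2), and no other pair of arrays of the same design did so. These 2 measurements are counted in both sets, and which culture they came from cannot be told apart.

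The mitochondrial ribosomal protein genes as a group lay above the median gene in most arrays. Their median level ran from -0.41 to 1.39 over all arrays, with a middle value of 0.60, and was above 0 in 203 of them. It was 0.56 to 0.83 in the 6 T0 arrays of the 30 min course and 0.51 to 0.89 in those of the 1 min course. The lowest value came from an exponential lysate treated with trypsin and the highest from an upshift array at 5 to 8 h. The SD of the group median between arrays of the same condition was 0.166 in the 30 min course, 0.258 in the upshift set, 0.258 in the 1 min course, 0.238 in the 10 s course, 0.254 in the lysate set, 0.465 in the RNA polymerase II set and 0.0213 in the isolation set. In the stress courses it stayed above 0 in every array except the 2 T0 arrays of the 10 s course that stood apart, as the plot by array shows.

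**Figure D1:**
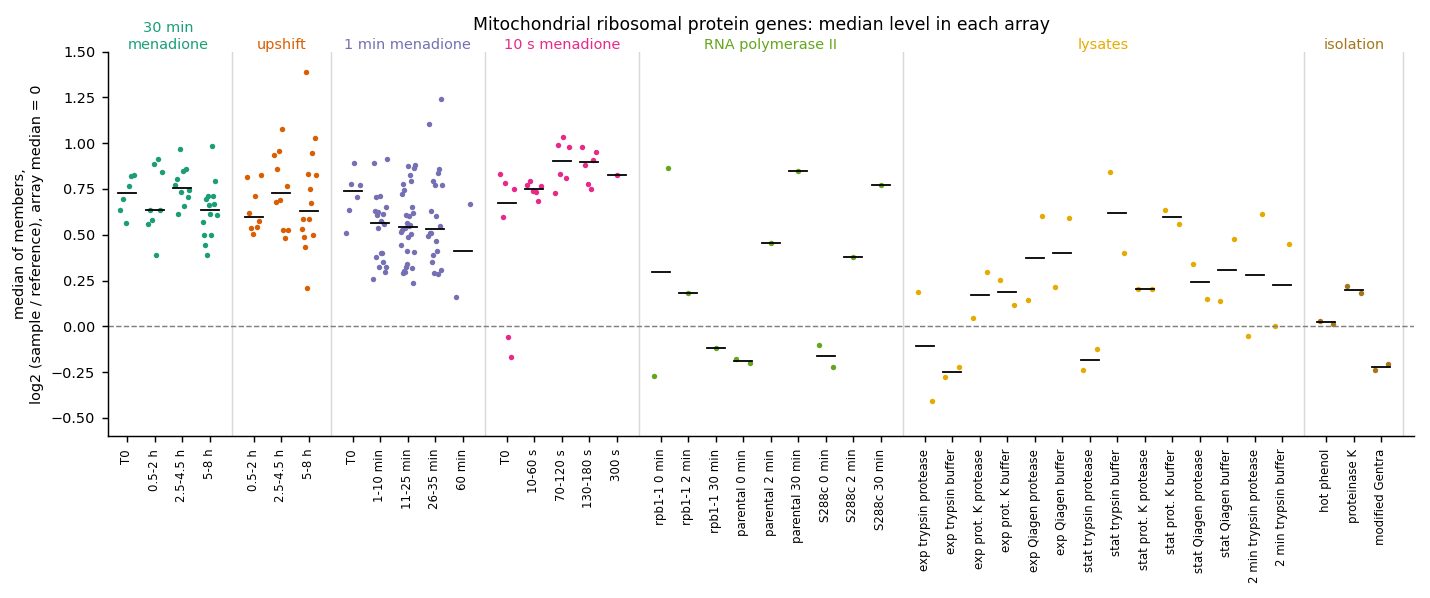
Each point is the median level of the mitochondrial ribosomal protein genes in 1 array, as log2 of sample to reference with the median gene of the array at 0; black lines are medians of each condition, and colours mark the 7 sets. The menadione and upshift courses lie above 0 apart from 2 T0 arrays of the 10 s course, while the T0 arrays of the parental strain and S288c, both stationary trypsin arrays and both modified Gentra arrays lie below 0.

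The levels of large and small subunit genes overlapped in the 30 min course and the upshift. In the 30 min course the large subunit median was 0.72 ± 0.17 (SD, n = 14 arrays) and the small subunit median 0.50 ± 0.22 at 5 to 8 h, against 0.71 ± 0.15 and 0.67 ± 0.16 at T0 (n = 6). At 5 to 8 h of upshift they were 0.75 ± 0.35 and 0.57 ± 0.25 (n = 14). The ranges of the subunit medians over arrays overlapped in each case. Both medians come from the same arrays, and their difference was not tested.

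The cytosolic ribosomal protein genes, by contrast, spread far more widely over the same arrays. Their median ran from -5.43 to 4.50 over all arrays and was above 0 in 29 of them. In the 30 min course it was -3.73 ± 0.20 at T0 (SD, n = 6), -2.57 ± 0.18 at 0.5 to 2 h (n = 8) and -4.97 ± 0.32 at 5 to 8 h (n = 14). The mitochondrial group stood in the same arrays at 0.72 ± 0.11 at T0, 0.68 ± 0.18 at 0.5 to 2 h and 0.63 ± 0.15 at 5 to 8 h. The mitochondrial group lay at or below 0 in 16 arrays, and in 13 of these the cytosolic group lay above the median gene.

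**Figure D2:**
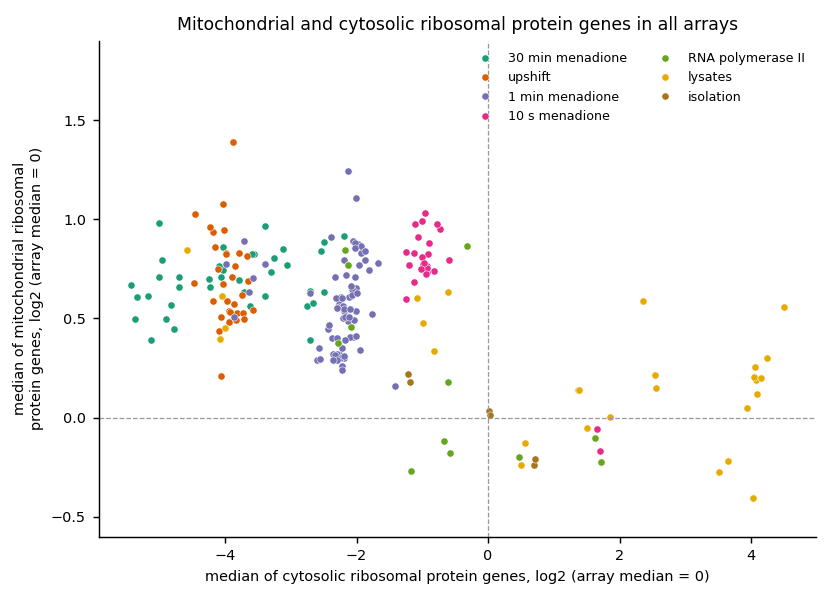
Each array is a point, with the median level of the cytosolic ribosomal protein genes on the horizontal axis and that of the mitochondrial ribosomal protein genes on the vertical axis, both as log2 of sample to reference with the median gene of the array at 0. The horizontal range runs from -5.43 to 4.50 and the vertical range from -0.41 to 1.39; colours mark the 7 sets.

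Single members differed from each other much more than the group median did between arrays. At T0 of the 30 min course 56 members had 4 or more values, and 38 of their medians lay above 0. The quartiles of the members were -0.19 and 1.29 with a median of 0.68, while those of 4307 genes were -1.42 and 1.13 with a median of -0.03. The highest medians were those of MRPL40 (uL24m) at 2.85, MRPL24 (bL28m) at 2.72, RSM18 (bS18m) at 2.71, MRPL28 (mL40) at 2.51 and MRPL16 (uL16m) at 2.19. The ranges of these genes overlapped, with RSM18 at 1.43 to 3.72 and MRPL28 at 1.71 to 3.39 over 6 arrays, so their order was not resolved. The lowest were MRPL36 (bL31m) at -2.63, MRPS5 (uS5m) at -2.50, MRPL44 (mL53) at -1.87, RSM22 at -1.78 and MRP1 (mS43) at -1.69. Their order was not resolved either, with MRPL36 at -2.79 to -0.21 over 5 arrays and MRPL44 at -3.92 to -0.88 over 6 arrays. MRPS5 ran from -2.75 to -2.28 over 4 arrays and MRP1, a protein with a fold like that of superoxide dismutase, from -2.39 to -1.03 over 6 arrays. Every value of MRPS5 and MRP1 was therefore below every value of RSM18 and MRPL28.

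In the 30 min menadione course, members were called in both directions within the first 2 h, in shares near those of all genes. Of 41 members tested, 6 rose and 8 fell at 0.5 to 2 h relative to T0, where 18.3% of 3285 genes were called higher and 19.4% lower. With the replicate number as a block 3 of these 14 calls remained (4 members called), and those of MRPL39, MRPL15, MRPS18 and RSM18 were not among them (adjusted p = 0.199 to 0.422). The T0 arrays carry 6 numbers and each treated time 2, and no source ties T0 numbers to a course. Whether a call against T0 is kept or lost with the block, here and below, therefore does not decide it. The median difference was -0.10 for the members and -0.02 for all genes, and the members' median was 1.02 without centring, where that of all genes was 1.05. Each fall here and below is therefore relative to the median gene: without centring 18 members were called higher and 0 lower. Counts of members called without centring or under other alternatives, here and below, come without the share of all genes called. They are not read as particular to the members. Among large subunit genes 5 rose and 4 fell of 26 tested, and among small subunit genes 1 rose and 3 fell of 13.

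The largest fall was that of MRPL28, an mL40 protein of the large subunit. Its lowest, median and highest levels were -1.19, 0.67 and 1.21 in 8 arrays at 0.5 to 2 h, against 1.71, 2.51 and 3.39 in 6 T0 arrays. The ranges did not meet, and the level at 0.5 to 2 h was 0.239 of that at T0 (log2 difference -2.07, SE 0.37, adjusted p = 2.47e-05 with limma). RSM18, the bS18m protein, fell by 1.31 (SE 0.44, adjusted p = 0.0154), with levels of 0.57 to 2.12 (n = 7) against 1.43 to 3.72 at T0 (n = 6); without centring the difference was 0.01, and without replicate 4 the adjusted p was 0.0537. MRPS18 (uS11m), a protein of the small subunit platform, fell by 1.26 (SE 0.35, adjusted p = 0.00453), to -2.10 to -0.53 (n = 7) against -1.22 to 0.72 at T0 (n = 6); without the replicate 1 arrays the difference was -0.59 at an adjusted p of 0.38.

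MRPL39 (bL33m) had the largest rise, to 1.87, 2.65 and 3.42 (lowest, median and highest, n = 7) at 0.5 to 2 h, against 0.94, 0.85, 1.42, 1.25 and 1.29 in the 5 T0 arrays with a value. All treated arrays lay above all T0 arrays (log2 difference 1.59, SE 0.50, adjusted p = 0.0123), although with values at or below 0 set to a floor the difference was 0.63 at an adjusted p of 0.761. MRPL44 (mL53) rose by 1.50 (SE 0.49, adjusted p = 0.0153), with levels of -1.68 to 0.97 (n = 8) against -3.92 to -0.88 (n = 6); without the replicate 2 arrays the rise was 1.16 at an adjusted p of 0.138. MRPL15 (mL57), which has a fold like that of RNase III, rose by 1.23 (SE 0.42, adjusted p = 0.0196), or by 0.72 at an adjusted p of 0.103 without the replicate 2 arrays. MRPL4 (uL29m), next to the exit tunnel, MRP1 and MRPL49 (bL21m) rose by 0.73 to 1.02. MRPL16, RSM10, MRPL51, MRPL19 and MRP8 fell by 0.66 to 1.04.

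By 5 to 8 h of menadione 5 members had risen and 4 had fallen relative to T0, where 15.3% of genes were called higher and 30.4% lower. With the replicate block 3 of these 9 calls remained (7 members called), and those of MRPL22, MRPL28, MRPL39 and MRPS18 were lost (adjusted p = 0.155 to 0.755). The median difference of the members was -0.10 against -0.26 for all genes, and it was 1.22 without centring against 0.88 for all genes, with 20 members called higher and 0 lower. RSM10 (uS10m), a protein of the small subunit head, had levels of -1.06, -0.28 and 0.34 (n = 14), against 0.48, 1.01 and 1.20 at T0 (n = 6). The ranges did not meet and the level was 0.412 of that at T0 (log2 difference -1.28, SE 0.16, adjusted p = 1.4e-08); without centring it was -0.13 at an adjusted p of 0.807. MRPL22 (uL22m), which lines the exit tunnel, rose to 1.73, 2.01 and 3.11 (n = 14), against 1.56, 1.05, 0.71, 0.44 and 1.15 in 5 T0 arrays (log2 difference 1.11, SE 0.21, adjusted p = 5.14e-05). MRPL39 stayed up by 1.48 (SE 0.45, adjusted p = 0.00791; 0.23 at an adjusted p of 0.907 with the floor), MRPS18 stayed down by 1.17 and MRPL28 by 0.82. The MRPL28 call was the least stable of these: its adjusted p of 0.0445 became 0.0849 without replicate 3, and its difference was 0.33 without centring. MRPS17 (uS17m) rose by 0.74 (SE 0.25, adjusted p = 0.0134), and by 0.37 at an adjusted p of 0.301 without replicate 2.

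Several members changed direction within the course. Between 0.5 to 2 h and 5 to 8 h, 5 members rose and 4 fell, where 14.1% of genes were called higher and 24.6% lower; the median difference of the members was -0.07, and 0.01 without centring, with 3 higher and 0 lower. Without the replicate 1 arrays 2 of the 9 calls remained, and with quantile normalization 4 members were higher and 7 lower. MRP8, whose function is not established, lay at 1.86, 2.39 and 2.65 at 5 to 8 h (n = 14), against 0.46, 1.02 and 1.68 at 0.5 to 2 h (n = 8), so that the windows did not overlap (log2 difference 1.29, SE 0.16, adjusted p = 4.49e-09). It had been below T0 early, by 0.66, and was above T0 late, by 0.64. MRPS17 and MRPL28 rose between the windows by 1.28 and 1.25. The opposite was seen for MRP1, which fell by 1.20 (SE 0.29, adjusted p = 0.000714), for MRP4 (uS2m), which fell by 1.03 (SE 0.34, adjusted p = 0.0147), and for MRPL4, which fell by 0.63 (SE 0.22, adjusted p = 0.0209). Without the replicate 1 arrays the MRP1 difference was -0.64 at an adjusted p of 0.162 and the MRP4 difference -0.59 at 0.313, and that of MRPS17 was 0.94 at 0.091. Cytosolic ribosomal protein genes turned within the same course, with 112 of 135 tested higher and none lower early, and 1 higher and 112 lower late.

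In the temperature upshift the member that rose most was MRPS17, a primary rRNA-binding protein of the small subunit. It lay at 0.66, 1.56 and 2.17 at 0.5 to 2 h (n = 8) and at 1.85, 2.26 and 2.75 at 5 to 8 h (n = 14), against -1.14, -0.62 and 0.39 in the 6 T0 arrays. All upshift arrays of both windows lay above all T0 arrays. The rise was 3.78-fold early (log2 difference 1.92, SE 0.28, adjusted p = 7.92e-07) and 6.54-fold late (2.71, SE 0.25, adjusted p = 4.45e-12), and it kept its call under all the alternatives run. T0 is taken from the 30 min menadione set, so a difference between sets and the upshift cannot be told apart.

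Few other members changed in the upshift. At 0.5 to 2 h 4 members rose and 1 fell of 41 tested, where 8.49% of genes were called higher and 6.67% lower, with a median difference of 0.16 for the members (0.61 without centring, with 2 higher and 0 lower) and -0.10 for all genes. Without replicate 1 or replicate 2, or with the replicate block, 2 of the 5 calls remained. MRP1 rose by 1.29 (SE 0.35, adjusted p = 0.00813), to -0.79 to -0.03 (n = 8) against -2.39 to -1.03 at T0. MRPS16 (bS16m) rose by 0.89 (SE 0.23, adjusted p = 0.00462), and MRPL8 (bL17m) fell by 0.82 (SE 0.26, adjusted p = 0.0277). Without replicate 1 or 2 the adjusted p of MRPS16 was 0.0584 and 0.0697, and that of MRPL8 was 0.12 and 0.144. At 5 to 8 h 4 members rose and 2 fell, 3 of them also with the block, where 14% were called higher and 16.4% lower, and the median difference was 0.19 (0.39 without centring, with 2 higher and 0 lower) against -0.12 for all genes. MRPL39 rose by 1.55 (SE 0.46, adjusted p = 0.00959), and MRP10 (mS37), a small protein with paired cysteine motifs, by 1.09 (SE 0.41, adjusted p = 0.0418), or 0.33 at an adjusted p of 0.337 without the replicate 1 arrays. MRPS12 (uS12m), a protein of the decoding centre, fell by 0.93 (SE 0.32, adjusted p = 0.021), with a difference of -0.53 at an adjusted p of 0.232 without the replicate 2 arrays, and MRPL8 fell by 0.77. Between the windows 1 member rose and 1 fell, where 5.54% were called higher and 6.33% lower, with a median difference of 0.13 (-0.15 without centring); with the replicate block both remained and 5 members were called. MRPS17 rose by 0.79, at an adjusted p of 0.0141 that was 0.356 without replicate 1 and 0.14 without replicate 2. MRPS16 fell back to -1.29, -0.88 and -0.64 at 5 to 8 h (n = 13), against -0.25, 0.06 and 0.43 at 0.5 to 2 h (n = 8), without overlap (log2 difference -0.996, SE 0.19, adjusted p = 0.000175; 0.0708 without replicate 1 and 0.0561 without replicate 2).

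Menadione and upshift were compared directly at the same times, without the shared T0 arrays. The menadione and upshift arrays come from different sets, so a difference between sets and one between stresses cannot be told apart, here and in the next paragraph. At 0.5 to 2 h 6 members were higher and 11 lower in menadione than in upshift, where 28.4% of genes were called higher and 26.9% lower. At 5 to 8 h 7 were higher and 16 lower, where 23.9% were called higher and 37.8% lower. The median differences of the members were -0.14 and -0.25 (0.44 and 0.77 without centring, where all genes had 0.63 and 0.76), against 0.06 and -0.21 for all genes. Without centring 10 were higher and 2 lower early, and 18 higher and 1 lower late. Among 26 large subunit members tested, 5 were higher and 4 lower early, and 6 higher and 9 lower late. Among 13 small subunit members, 0 were higher and 6 lower early, and 1 higher and 7 lower late. Median differences of the large and small subunit were 0.17 and -0.54 early, and -0.05 and -0.91 late, a contrast that was not tested. The windows come from different arrays of the same time courses, in which same-numbered arrays deviated together in most pairs of times. The overlap of calls between the windows is not given for all genes. The overlaps that follow are therefore not read as a trait of the members. MRPL15, MRPL22, MRPL4 and MRPL49 were higher in both, which is 66.7% of the early and 57.1% of the late calls. MRP10, MRPL19, MRPL28, MRPL51, MRPL9, MRPS17, MRPS18, RSM10 and RSM18 were lower in both, 81.8% of the early and 56.2% of the late calls, and none had opposite calls.

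MRPS17 differed most, at -2.29, -1.06 and 0.37 in menadione and 0.66, 1.56 and 2.17 in upshift early (8 arrays each; log2 difference -2.46, SE 0.25, adjusted p = 7.41e-11). At 5 to 8 h it was -0.18, 0.24 and 0.88 in menadione and 1.85, 2.26 and 2.75 in upshift (14 arrays each; -1.97, SE 0.19, adjusted p = 7.19e-12). The arrays of the menadione set and of the upshift set did not overlap in either window. MRPL28 and RSM18 were lower in menadione by 2.08 and 1.69 early. MRP20 (uL23m), which borders the exit tunnel, was lower by 1.45 late (SE 0.30, adjusted p = 8.47e-05), and MRPS18 by 1.43. In the other direction MRPL22 was at 1.73, 2.01 and 3.11 in menadione (n = 14) and 0.06, 0.75 and 1.05 in upshift (n = 10) at 5 to 8 h, again without overlap (1.39, SE 0.17, adjusted p = 1.96e-08). MRPL49 was higher by 1.27 early and 1.02 late, and MRPL15 by 1.51 and 0.95. The MRPL15 calls were lost without the replicate 2 arrays (adjusted p = 0.119 and 0.124). RSM22 was higher in menadione by 1.33 early (SE 0.50, adjusted p = 0.0245; 0.148 without replicate 1), and MRP2 (uS14m) by 0.92 late (SE 0.30, adjusted p = 0.00863).

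**Figure D3:**
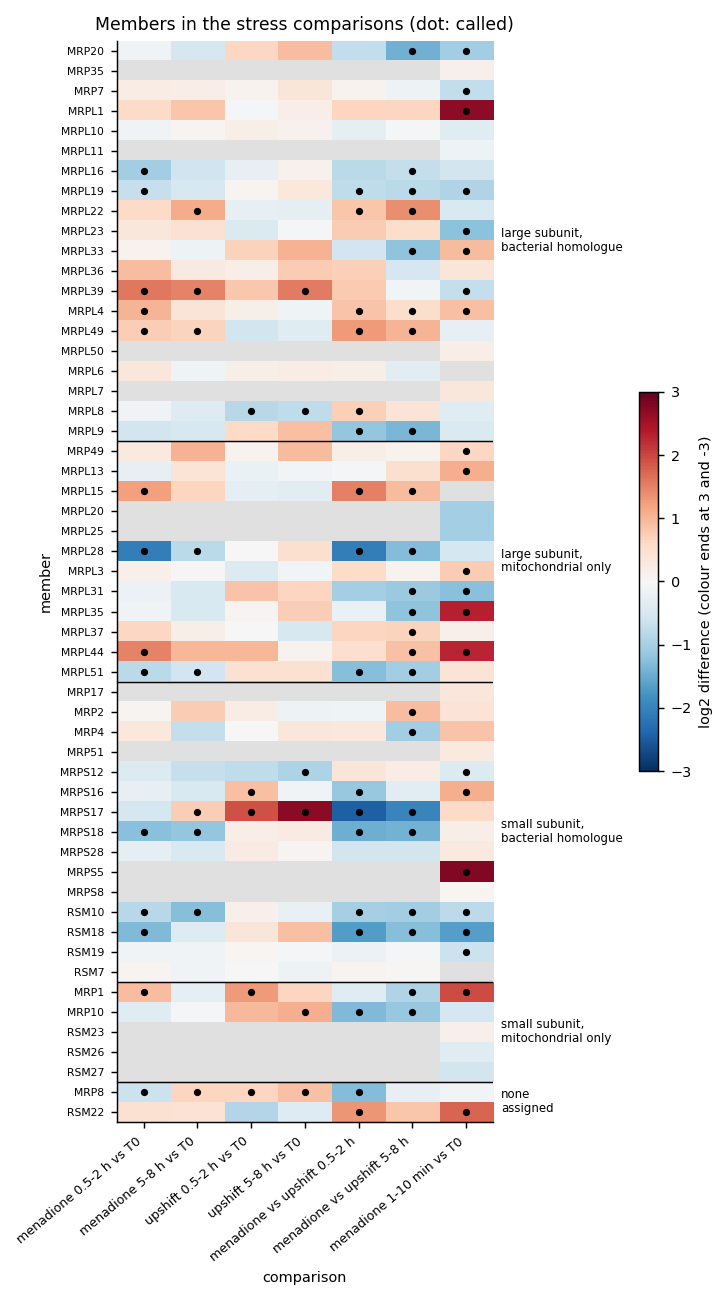
Rows are the members tested in at least 1 of 7 stress comparisons, grouped by subunit and by bacterial homology, and columns are the comparisons; colour gives the log2 difference, a dot marks a call at an adjusted p under 0.05, and grey marks a member not tested. MRPS17 is dark red in both upshift columns and blue in both menadione against upshift columns, MRPL28 is called lower in all 4 columns of the 30 min menadione course and was not called at 1 to 10 min, and the rows of a subunit mix red and blue.

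**Figure D4:**
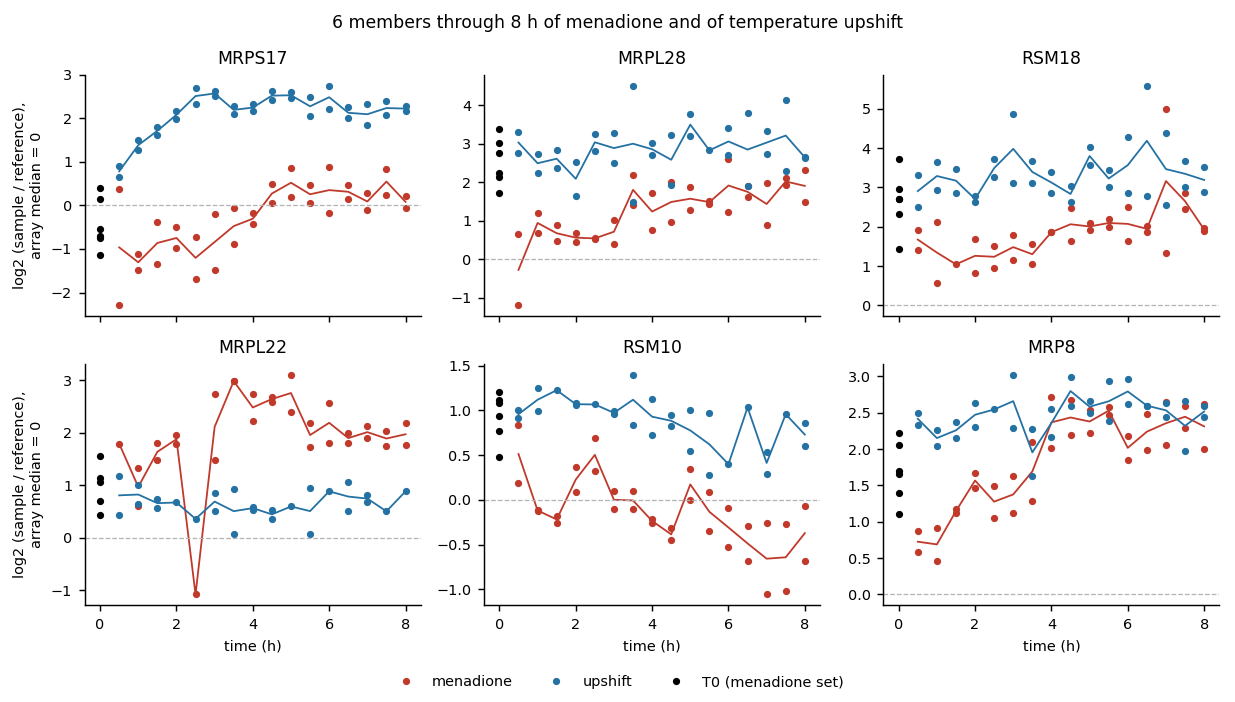
Levels of 6 members (log2 of sample to reference, median gene at 0) against time in the 30 min menadione course (red) and the temperature upshift (blue), with the 6 T0 arrays of the menadione set in black; points are arrays and lines join the means at each time. MRPS17 rises with upshift and stays above 1.85 from 5 h, MRPL28 lies lower in menadione from 0.5 h, and MRP8 in menadione climbs into the range of the upshift arrays by 5 h.

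In the 1 min course 12 members were higher and 10 lower at 1 to 10 min than at T0, of 51 tested, where 31% of 3843 genes were called higher and 25% lower. With the replicate block 15 of these 22 calls remained, and without the arrays that share values with the RNA polymerase II set all 22 did. The array design changed between these groups together with the treatment, so the 2 cannot be told apart. The median difference was 0.14 for the members (0.56 without centring, against 0.53 for all genes, with 14 higher and 2 lower) and 0.13 for all genes. MRPS5 lay at -1.12, 0.29 and 2.79 (n = 18), against -2.76, -2.32, -2.22 and -2.05 in 4 T0 arrays (log2 difference 2.78, SE 0.49, adjusted p = 6.15e-06). MRPL1 (uL1m), the protein of the mobile L1 stalk, was higher by 2.69 (SE 0.68, adjusted p = 0.0012) and MRPL35 (mL38) by 2.32 (SE 0.42, adjusted p = 5.86e-06), both without overlap of the groups. MRP1 lay at -0.56 to 1.21 (n = 18), against -2.22 to -1.50 at T0 (n = 6), a difference of 1.95 (SE 0.15, adjusted p = 9.44e-15). RSM18 was lower by 1.65, MRPL31 (mL60) by 1.26 and MRPL23 (uL13m) by 1.23. Smaller differences were called for MRP49 (mL61), higher by 0.61, and for MRP7 (bL27m) and MRP20, lower by 0.74 and 1.05.

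Within the treated arrays of that course, all on the same design, no member was called at later times. At 26 to 35 min against 1 to 10 min, 0 of 51 members were called with limma and 5 had an unadjusted p under 0.05 (2 were called with the replicate block), where 0.847% of genes were called higher and 0.205% lower. At 60 min 0 of 51 were called and 3 had an unadjusted p under 0.05, where 0.0514% were called higher and 0.0257% lower. The median differences were 0.08 and 0.03 (0.18 and -0.21 without centring). The SD of the group median between duplicate arrays of this course, 0.258, was larger than either.

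In the first minute of menadione, sampled every 10 s, 0 of 59 members were called at 10 to 60 s with limma, and 11 had an unadjusted p under 0.05, where 0.0226% of 4420 genes were called higher and 0.0679% lower. At 130 to 180 s 2 members rose and 1 fell, where 0.52% were called higher and 1.58% lower. The median differences of the members were 0.27 and 0.31 (1.11 and 1.84 without centring, against 0.83 and 1.50 for all genes), and 0.01 and -0.03 for all genes. Without centring 35 members were called higher at 10 to 60 s and 55 at 130 to 180 s, and 0 lower. The share of all genes called without centring is not given here, and the median of all genes rose as well. Without the 2 T0 arrays that stood apart the members' medians were -0.05 and -0.02, and none of the 3 calls remained. MRPL10 (uL15m) lay at 0.96, 1.22 and 1.99 in 6 arrays at 130 to 180 s, against 0.59, -0.11, -1.28, -1.59 and -0.32 at T0, where -1.28 and -1.59 are the values of the arrays that stood apart. MRPS18 was higher by 1.59 and MRPS35 (mS45) lower by 0.68. Without the 2 arrays the 3 differences were 1.23, 1.22 and -0.52, at adjusted p of 0.125, 0.0799 and 0.0875; without centring that of MRPS35 was 0.85.

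In the RNA polymerase II set few members had enough values to test. Over the 3 strains together, 6 of 9 members tested rose after menadione and 0 fell, where 26.9% of 1448 genes were called higher and 21.2% lower, with a median difference of 1.01 (1.74 without centring) against 0.20 for all genes. With rpb1-1 and the parental strain only, which leaves out the S288c arrays repeated from the 1 min course, 2 of the 6 calls remained. In the parental strain 7 of 18 rose and 1 fell, where 20.3% were called higher and 22.6% lower (median 1.14, or 1.64 without centring). In S288c 4 of 16 rose and 0 fell, where 26% were called higher and 17.4% lower (median 0.55, or 0.67 without centring). Both treated S288c arrays are the repeated ones, and 0 of the 4 calls remained without either S288c T0 array. In rpb1-1 cells 0 of 11 were called, 3 had an unadjusted p under 0.05, and 0% of 1499 genes were called in either direction (median -0.03, or 1.23 without centring). The cytosolic ribosomal protein median moved in the same arrays. It was -2.29 and -2.13 after menadione, against 1.62 and 1.73 at T0 in S288c, and -2.08 and -2.17 against -0.59 and 0.47 in the parental strain. In rpb1-1 it was -0.61 and -0.66 against -1.17 and -0.32. Its part in the members' differences was not tested.

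MRP8 was called in the parental strain and in S288c. It lay at 1.61 and 2.21 at 2 and 30 min in the parental strain, against -1.15 and -3.14 at T0, and at 1.60 and 2.42 in the repeated S288c arrays, against -1.51 and -1.48 at T0. In rpb1-1 it was -0.21 and -0.01 at the same times, against -0.24 in the T0 array with a value. The differences were 4.05 (SE 0.72, adjusted p = 0.0157) in the parental strain and 3.50 (SE 0.72, adjusted p = 0.0196) in S288c. The S288c difference was 3.49 at an adjusted p of 0.065 without S288c T0 array 1 and 3.51 at 0.0663 without array 2. MRPL22 lay at 0.85 and 0.42 in the parental strain, against -1.65 and -1.55 at T0, and at 0.44 and 0.83 in the repeated S288c arrays, against -0.962 and -1.005 at T0. In rpb1-1 it was -3.11 and -3.31, against -2.64 and -2.12.

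MRPL22 was the only one of the 11 members tested whose response was called different between rpb1-1 and the parental strain (difference of differences -3.07, SE 0.46, adjusted p = 0.0208; -1.58 at an adjusted p of 0.419 without centring). Over these members 0 were called higher and 1 lower, where 10.7% of genes were called higher and 7.94% lower, with a median of -0.60 (-0.10 without centring); without the T0 array of 941 usable values 6 were called. At T0, 1 of 11 members was higher in rpb1-1 than in the parental strain and 0 were lower, where 2.07% were called higher and 2% lower, with a median of -0.07 (-1.58 without centring). It was MRPS16, at 2.65 and 2.86 in rpb1-1, against 0.73 and 0.70 in the parental strain (log2 difference 2.04, SE 0.30, adjusted p = 0.036; 0.07 at an adjusted p of 0.954 without centring). The largest rises in the parental strain were those of MRPL24, 5.07, and MRPL50 (bL9m), 4.14; RSM10 fell by 2.12, with a single T0 value of 1.83. Over the 3 strains, where 1 to 3 of the 6 calls remained without rpb1-1 T0 array 1 or either S288c T0 array, MRP8 rose by 2.56 (2.09 at an adjusted p of 0.0622 without S288c), MRPL16 by 1.62 and MRPL39 by 1.36, and MRPL35 rose by 1.70 in S288c, or 1.80 at an adjusted p of 0.13 without S288c T0 array 1.

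Exponential lysates kept in buffer were compared with stationary lysates kept in buffer. Of 42 members tested 1 was higher and 8 were lower in exponential lysates, where 17.2% of 2557 genes were called higher and 18.3% lower, so the share lower was close to that of all genes. Of the 9 calls 7 remained with the replicate block. The median difference was -0.30 (1.93 without centring, against 2.30 for all genes, with 26 members higher and 0 lower) and 0.01 for all genes. In the same comparison 125 of 130 cytosolic ribosomal protein genes were higher and 0 lower, with a median of 4.08, and 16 of 35 nuclear genes of oxidative phosphorylation were lower and 0 higher, with a median of -1.61. Of the mitochondrial ribosomal protein genes, 6 of 22 large subunit members and 1 of 18 small subunit members were lower.

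MRP8 lay at -3.41, -2.60 and -1.79 in the 6 exponential arrays, against -1.29, -0.42 and 2.44 in the 6 stationary arrays, without overlap (log2 difference -2.81, SE 0.64, adjusted p = 0.00878; -0.45 at an adjusted p of 0.516 without centring). MRPL31 lay at -3.59, -1.95 and -0.20 in the 6 exponential arrays, against 0.98, 0.91, 4.81 and 2.33 in the 4 stationary arrays with a value (-3.79, SE 0.73, adjusted p = 0.00616). MRPL24 was lower by 3.05, at an adjusted p of 0.0486 that was 0.32 without stationary trypsin buffer array 2 (difference -1.67). RSM22 was the member called higher, at 1.92, 1.00, 2.01, 2.42 and 2.89 in 5 exponential arrays, against -2.82, -0.79 and 3.54 (lowest, median and highest) in 6 stationary arrays (2.59, SE 0.72, adjusted p = 0.0161). Its value of 3.54 came from stationary proteinase K buffer array 2, the array that matched an exponential one, and without stationary proteinase K buffer array 1 the difference was 2.04 at an adjusted p of 0.0557. Without the 2 arrays that matched another labelled condition all 9 calls remained and the members' median was -0.40. In the trypsin buffer arrays alone, whose stationary duplicates had markers above the cytosolic ribosomal proteins, it was -0.74 with 11 members called. Without stationary proteinase K buffer array 1, 2 of the 9 calls remained, without any of 5 other arrays (stationary trypsin buffer 1, exponential trypsin buffer 2, exponential proteinase K buffer 1 and 2, exponential Qiagen buffer 1) 4 or 5 did, and without arrays that had over 20% of values at or below 0, 1 did.

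**Figure D5:**
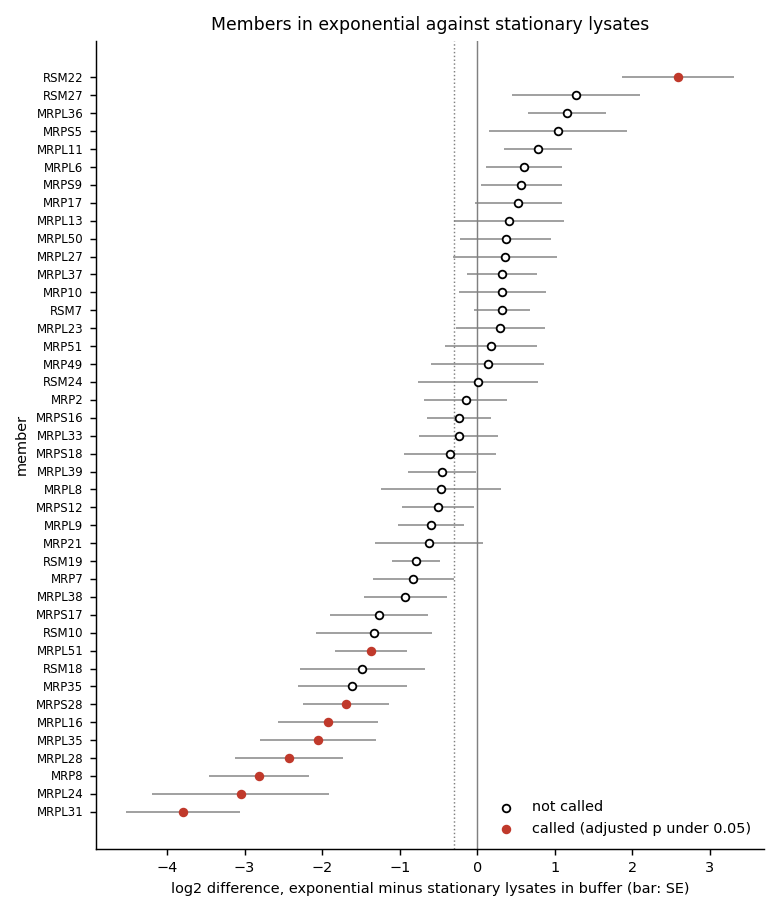
Log2 difference of each of 42 members between exponential and stationary lysates in buffer, with bars for the SE; red points are called at an adjusted p under 0.05, and the dotted line is the members' median of -0.30. RSM22 at 2.59 is the only red point on the right, and 8 red points lie on the left from -1.37 to -3.79.

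In the fit of the whole lysate set, which did not pair arrays, protease treatment of stationary lysates gave no call among the members. Per the study's methods each lysate was divided into 2 tubes, but no source used here says which arrays share a lysate. Over the 3 proteases 0 of 42 members were called with limma and 6 had an unadjusted p under 0.05, where 0% of genes were called higher and 0.0391% lower, with a median difference of -0.40 (1.26 without centring, against 1.37 for all genes) and -0.22 for all genes. Trypsin alone gave 0 of 40 members called and 9 at an unadjusted p under 0.05 (0% of genes higher and 0% lower, median -1.02, or 1.03 without centring), proteinase K gave 0 of 42 and 1 (0% and 0%, median -0.36, or 1.75 without centring), and Qiagen protease gave 0 of 39 and 2 (0% and 0%, median -0.23, or 0.39 without centring). With the trypsin arrays fitted alone 8 of the 40 members were called, and 3 with quantile normalization. Members were also called for trypsin with the replicate block, so the absence of calls depends on the fit. The shares of all genes called in these fits are not given here. The trypsin arrays had the widest gap: the group median was -0.24 and -0.13 with trypsin, against 0.40 and 0.84 in its buffer arrays. Trypsin and the NaCl solution it was added in cannot be told apart here. The cytosolic ribosomal protein median was 0.50 and 0.56 in the trypsin arrays, against -4.57 and -4.08 in the buffer arrays, and its part in the members' difference was not tested.

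Protease treatment of exponential lysates gave no call either, with 0 of 42 called and 3 at an unadjusted p under 0.05 (0% of genes higher and 0% lower, median 0.08, or -0.13 without centring). The protease response of stationary minus exponential lysates gave 0 of 42 called and 6 at an unadjusted p under 0.05 (0% higher and 0.0391% lower, median -0.55, or 1.36 without centring). After 2 min of menadione, trypsin against buffer gave 0 of 42 called and 0 at an unadjusted p under 0.05 (0% and 0%, median 0.10, or 1.22 without centring). Buffer lysates after 2 min of menadione against T0 gave 0 of 41 called and 6 at an unadjusted p under 0.05 (0% and 0%, median -0.41, or 0.23 without centring). The duplicates after menadione correlated at -0.20 and -0.19 over all genes. Those of stationary proteinase K buffer, Qiagen buffer and Qiagen protease correlated at 0.04, 0.12 and 0.13, and those of exponential Qiagen protease at 0.19. In the other lysate conditions duplicates correlated at 0.72 to 0.87. Such low correlations limit what could be detected in every protease comparison that used these arrays.

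The isolation method was tested with the most members, 66 of 67, in 2 arrays per method. Duplicates correlated at 0.44 (hot phenol) to 0.88 over all genes, and cytosolic ribosomal protein genes lay above the markers in 4 of the 6 arrays. The group median ran from -0.24 to 0.22 over these arrays, against 0.39 to 0.98 over the 30 min course. Both modified Gentra arrays lay below 0, although the 30 min course used that protocol on stationary cells too, on another array design. The cause was not tested, and levels of this set are not read against T0. With hot phenol 3 members were higher and 2 lower than with the modified Gentra protocol, where 11% of 4736 genes were called higher and 9.23% lower, with a median difference of 0.09 (-0.13 without centring, with 0 higher and 3 lower) and 0.01 for all genes. Without either hot phenol array none of the 5 calls remained, and without modified Gentra array 1 only 1 did. MRPS16 lay at -0.14 and -0.82 with hot phenol, against 2.75 in the only modified Gentra array with a value, which decides its difference of -3.23. RSM10 lay at -0.19 and -0.14, against 1.41 and 1.28 (-1.51, SE 0.18, adjusted p = 0.00944; 0.0514 without modified Gentra array 1). MRPL50, MRPL15 and RSM24 (mS35) were higher by 0.90, 0.79 and 0.73, each lost on leaving out an array (adjusted p = 0.121, 0.151 and 0.121 without modified Gentra array 1). In the same comparison 34 of 35 oxidative phosphorylation genes were higher, with a median of 1.47.

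With the proteinase K step 11 members were higher and 4 lower than with modified Gentra, where 17.5% were called higher and 21.4% lower. The members' median difference was 0.34 (0.60 without centring, against 0.25 for all genes, with 25 higher and 1 lower) and -0.01 for all genes, while 124 of 134 cytosolic ribosomal protein genes were lower, with a median of -1.88. None of the 15 calls remained with quantile normalization, 4 remained without proteinase K array 1, 2 without proteinase K array 2 and 6 without modified Gentra array 2. Among large subunit members 7 of 37 were higher and 0 lower, and among small subunit members 4 of 27 were higher and 4 lower. MRPL28 lay at 1.29 and 1.49, against 0.31 and 0.23 (1.12, SE 0.17, adjusted p = 0.00725). MRP10 lay at 0.99 and 1.13, against -0.33 and -0.00 (1.22, SE 0.33, adjusted p = 0.0373; 0.109 without proteinase K array 1). MRPL31 was higher by 1.30 on a single proteinase K value of 1.53, and its difference was -1.44 when values at or below 0 were set to a floor. MRP2 was higher by 0.91 and MRP7 by 0.83. Of the members lower, MRPS16 lay at 0.38 and 0.31, against the same single value of 2.75. MRP4 lay at -0.86 and -1.25, against -0.25 and 0.02 (-0.94, SE 0.26, adjusted p = 0.0411). MRP51 (bS1m), which acts with mRNA-specific activators in translation initiation, was at -0.93 and -0.67, against -0.08 and -0.21 (-0.65, SE 0.18, adjusted p = 0.0376). Both calls were lost on leaving out any of the 4 arrays.

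Over the 30 comparisons 48 of the 67 members were called at least once. In different comparisons 19 of them were called in both directions. The same counts over all genes are not given here, so these are not read as a trait of the members. MRP8 was called in 10 comparisons, higher in 7 and lower in 3, and 2 of the 7 used the repeated S288c arrays. RSM10 was called in 8, lower in each. The other 19 members were tested and never called: MRP13 (mS44), MRP17 (bS6m), MRP21 (bS21m), MRP35 (bL35m), MRPL6, MRPL7, MRPL11, MRPL17, MRPL20, MRPL25, MRPL27, MRPL32, MRPL36, MRPL40, MRPS8, MRPS9, RSM7, RSM25 and RSM26. MRP13 and MRPL32 had enough values for 2 comparisons only, those of the isolation methods. MRPL36 was tested in 23 comparisons and RSM7 (uS7m) in 21 without a call.

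Other nuclear genes of mitochondrial translation were counted at 5 to 8 h of menadione, where 15.3% of all genes were called higher and 30.4% lower. There 2 of 6 mitochondrial tRNA synthetase genes tested rose and 1 fell, 0 of 7 translation factor genes rose and 3 fell, and 0 of 9 translational activator genes rose and 3 fell. Of the 8 mitochondrial ribosomal protein genes tested that carry other kinds of symbol, 2 rose and 2 fell. Nuclear genes of oxidative phosphorylation, whose partners the mitochondrial ribosome makes, rose in 1 case and fell in 20 of 35, with a median of -0.66. Cytosolic ribosomal protein genes rose in 1 case, RPL10 (1.94), and fell in 112 of 135, RPL30 most (-2.58). Of 10 stationary phase markers tested 3 rose, HSP104 most (2.08), and 3 fell, GRE1 most (-4.16), with a median of -0.20. In exponential against stationary lysates the largest differences of these lists were those of RPP2A (6.23) and RPL2B (5.72), cytosolic ribosomal proteins, and of GRE1 (-6.14) and HSP12 (-8.05), stress genes of stationary phase.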

How the data were processed

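Stationary and exponential yeast RNA was measured on spotted oligonucleotide arrays of 2 designs, 143 arrays of 6979 probes and 76 of 6819. Per the labels and the study's methods, sample and reference cDNA were primed with oligo-dT, scanned with GenePix and background-subtracted, with a plant RNA added as control. In 6 sets the deposited values were linear ratios of Cy5 to Cy3, another unit than the log2 ratios the tests were planned for; whether the control RNA scaling is in them is not given in the sources used here. The 10 s set was deposited as log2 ratios, which the authors normalized to the control RNA.

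Values at or below 0 and the marker value 100000 were treated as missing, ratios were put on the log2 scale, probes of a gene were averaged, and each array was centred on its median gene, which removes any shift common to all genes. Arrays held 941 to 6605 usable values (median 5182). Genes measured in a share of 0.8 or more of a fit's arrays were tested with limma 3.58.1 in R 4.3.3 (moderated test on group means, Benjamini-Hochberg over all genes tested, called under 0.05); Python 3.11.15, pandas 2.3.3, numpy 2.4.6 and matplotlib 3.10.9 did the rest. The fit was tested on simulated data. The study calls its lysate and isolation duplicates biological replicates and its T0 arrays a mix of biological and technical ones; for the other sets no source used here says whether arrays of a condition came from separate cultures, so p-values there measure the spread between arrays, which may be technical. In the RNA polymerase II set that spread is the one between T0 arrays only. Array number limits the precision. Per the study's methods a time course was a block, and same-numbered arrays deviated together (r above 0.1) in 115 of 120 pairs of times in the 30 min course, 621 of 630 in the 1 min course and 92 of 120 in the upshift; no source ties T0 numbers to a course. Consecutive times were pooled as windows. Comparisons with the same T0 arrays share them.

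The members and all gene lists were chosen with earlier results of these data known. The text names the 3 largest called rises and falls among members in each comparison and each gene of the symbol MRP followed by digits; other members named, and the genes of the never-called list, were chosen after their values were seen. Subunits follow the ribosomal names in RefSeq annotation. Alternatives were other scalings, filters, a floor, robust variances, a 2-fold rule, arrays left out, a replicate block and, for the arrays deposited in 2 sets, fits without them.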

Additional observations from a re-analysis of the deposited data

Results flagged for a closer look

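Single T0 arrays lay far from the others of their group for 4 of 96 groups examined, where chance gives about 1 in 20. These were MRPL23 at -1.65 in T0 array 3 of the 10 s course, RSM10 at 0.32 in T0 array 4 of the 1 min course, RSM22 at 1.58 in T0 array 5 of the 10 s course, which is an array that stood apart, and RSM24 at 2.77 in T0 array 2 of the 30 min course.

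The response to menadione differed between rpb1-1 and the parental strain for MRPL22 (-3.07, limma adjusted p = 0.0208). Between early and late menadione it differed for MRP8 (1.29), MRPS17 (1.28), MRPL28 (1.25), MRPL4 (-0.63), MRP4 (-1.03) and MRP1 (-1.20), and between early and late upshift for MRPS17 (0.79) and MRPS16 (-0.996), each by a test of the difference between the windows. The MRPL22 call was lost without centring. Those of MRP1, MRP4 and MRPS17 in menadione, and both upshift calls, were lost when a replicate was left out.

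At 70 to 120 s of the 10 s course, a window used in no comparison, the median of the members had a middle value of 0.90 over 6 arrays, above the highest T0 array at 0.83.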

How the results depend on the processing

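Over all alternatives run, the members' median difference moved in 423 cases by less than the SD between arrays of a condition and in 91 by more, while counts of members called stayed within 1.5 times in 399 and moved further in 115; calls of named members held in 930 cases, were lost in 220 and changed sign in 4. The cause was not tested. Values as deposited, without centring, moved most medians: menadione against T0 1.02 at 0.5 to 2 h, 1.22 at 5 to 8 h, 0.56 at 1 to 10 min, 1.11 at 10 to 60 s and 1.84 at 130 to 180 s, upshift 0.61 at 0.5 to 2 h and -0.15 late against early, menadione against upshift 0.44 and 0.77, 3 strains 1.74, parental 1.64, rpb1-1 1.23, rpb1-1 minus parental response -0.10, rpb1-1 against parental at T0 -1.58, exponential against stationary 1.93, 2 min of menadione 0.23, stationary protease 1.26, trypsin 1.03, proteinase K 1.75, Qiagen 0.39, stationary minus exponential 1.36, trypsin after menadione 1.22, hot phenol -0.13 and proteinase K isolation 0.60. It also turned RSM18 at 0.5 to 2 h (0.0109), MRPL28 at 5 to 8 h (0.33) and MRPS35 at 130 to 180 s (0.85), and a floor turned MRPL31 in the proteinase K isolation (-1.44).

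With a value required in every array the medians were -0.59 (Qiagen), 0.15 (hot phenol), -0.40 (1 to 10 min), 0.43 (60 min), 1.62 (S288c), 2.24 (parental), -0.82 (rpb1-1), -3.07 (response difference) and -0.78 (strains at T0), from far fewer genes; with a value in a share of 0.5 of the arrays they were 0.10 and 0.11 for the menadione windows against T0 and 0.0762 and -0.0601 for menadione against upshift. Centring on genes with a value in 95% of arrays, chosen after seeing the data, gave 0.14 for menadione at 5 to 8 h, 0.0486 and 0.0608 for menadione against upshift and 0.40 for the proteinase K isolation. Quantile normalization gave 0.0739 for menadione at 0.5 to 2 h, -0.0629 for menadione against upshift at 5 to 8 h and 0.23 for the proteinase K isolation. Fitting only the arrays compared gave 0.18 (Qiagen), 0.12 (hot phenol), 0.0917 and 0.0872 (menadione windows) and -0.79 (rpb1-1). The floor gave 0.35 (Qiagen), 0.0482 (exponential against stationary), -0.17 (1 to 10 min), 0.61 (rpb1-1) and 0.32 (proteinase K isolation).

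Further alternatives chosen after seeing the data left out the arrays with over 20% of values at or below 0 (-0.25 for exponential protease, -0.14 for stationary minus exponential, 0.48 for trypsin after menadione, -0.65 for trypsin in stationary lysates), the 2 T0 arrays of the 10 s course that stood apart (-0.0467 and -0.0167) and the array with 941 usable values (0.58 for rpb1-1), or used the trypsin buffer arrays alone (-0.74).

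Leaving out 1 replicate or array at a time gave median ranges of -0.17 to 0.16 and -0.10 to 0.075 for the menadione windows against T0, -0.20 to 0.10 between them, 0.0732 to 0.53 for upshift at 5 to 8 h, -0.50 to 0.0895 and -0.72 to -0.20 for menadione against upshift, -0.26 to 0.32 for 1 to 10 min, 0.31 to 1.14 for the 3 strains, -1.04 to 0.58 for rpb1-1, 1.01 to 1.70 for the parental strain, -1.66 to -0.31 for the response difference, -0.51 to 0.55 for the strains at T0, -0.17 to 0.046 for Qiagen, -1.24 to -0.76 for trypsin, -0.66 to 0.10 for 2 min of menadione, -0.50 to 0.75 for trypsin after menadione, 0.10 to 0.21 for hot phenol and 0.28 to 0.34 for the proteinase K isolation.

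In the lysates same-numbered arrays deviated together (r above 0.1) in 11 of 91 pairs of conditions, among them the pair after menadione (r = 0.88), and in the isolation set and between T0 arrays of the strains in none. With the replicate block the members' median was 0.0669 for menadione at 5 to 8 h and 0.18 for Qiagen. Beside the counts given with the comparisons, 9 of 9 calls remained between the menadione windows, all 17 and 23 for menadione against upshift, 2 of 5 for hot phenol, 7 of 15 for the proteinase K isolation and 0 of 1 for the strains at T0. For menadione against upshift the numbers come from different sets, and no source used here ties them to each other. Trypsin alone had 5 members called against none, and the other comparisons without a call that were fitted with the block had none there either, apart from 26 to 35 min. No paired analysis was possible for the 10 s course or for menadione against T0 in the RNA polymerase II set because the groups compared share fewer than 2 numbers. Without the arrays deposited in 2 sets, chosen after seeing the data, 3 members were called over the strains against 6, and the calls of the parental strain, of the response difference, of the strains at T0 and of the 1 min course all remained.

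What the depth limits is mainly which members could be tested, 9 to 18 of 67 in the RNA polymerase II set and 39 to 42 in the lysates, against 66 in the isolation set.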
